A study of Mus musculus with 28 samples.

Results

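The RNA levels of 10 genes of matrix turnover were followed in mouse macrophages: the matrix metalloproteinases Mmp8, Mmp9, Mmp12, Mmp13, Mmp14 and Mmp19, the aggrecanase Adamts4, the protease inhibitors Timp1 and Timp2, and the proteoglycan versican (Vcan). They were taken by name from the array's gene names, where versican appears under its older name Cspg2, and the brightest probe stood for each gene. The members are 10 of 27670 gene names on the array, and all 10 were among the 22448 genes tested. The cells were bone marrow-derived macrophages (BMM) of C57BL6/J mice, 8 to 12 weeks old, and the labels name 2 males and 1 female as their source. Marrow cells of several animals were pooled, so an array reports a pool and not 1 animal. All 6 groups were grown in human rCSF1 (200 ng/ml), the growth factor that turns marrow cells into macrophages. From day 7, cells were left untreated (7 arrays), received LPS at 10 ng/ml for the last 4 h (7 arrays), IL-4 at 10 ng/ml for 18 h (4 arrays), IL-4 with LPS (4 arrays), IFNγ at 100 U/ml for 18 h (3 arrays), or IFNγ with LPS (3 arrays). Arrays carry experiment letters, A to G for untreated and LPS cells, A, B, C and G for IL-4 and E, F and G for IFNγ. The series describes at least 3 independent experiments for each condition.

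Matrix metalloproteinases are zinc enzymes that are made as inactive proenzymes and cut collagens, elastin, proteoglycans and many signalling proteins. Their activity is held in check by the tissue inhibitors of metalloproteinases, the TIMPs. Versican is a large chondroitin sulfate proteoglycan that binds hyaluronan, and ADAMTS enzymes such as ADAMTS4 cut it. Macrophages use these enzymes to move through and to remodel tissue. LPS is a bacterial wall component sensed by TLR4, IL-4 is a cytokine of type 2 immunity, and IFNγ is the classical macrophage-activating cytokine. RNA levels alone were measured here, so neither secreted protein nor enzyme activity is known.

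The values below are scaled intensities, the fluorescence of the probe with the 75th percentile of each array set to 1000. They serve to compare groups for 1 probe and not to compare genes. Changes are differences of group means on the log2 scale ± standard error (SE) from 1 limma model of all 28 arrays. A change was called when its p, adjusted by Benjamini-Hochberg over all tested genes, was below 0.05. The unscaled 75th percentile of an array lay between 582 and 2113 intensity units, and the share of its probes well above background between 60.0% and 78.6%. The labels fitted the marker genes of the treatments. Retnla, a marker of IL-4 treatment, was at 155700 to 317800 on the 8 IL-4 arrays and not well above background on the other 20. All 8 macrophage markers listed were well above background on every array. Of the markers of other cells, the neutrophil genes Elane and Retnlg were well above background on 6 of 28 arrays each. The lymphocyte gene Ncr1 was so on 2 arrays and the basophil gene Mcpt8 on 4. In these cultures fewer cells of a type and less RNA per cell cannot be told apart.

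**Figure D1:**
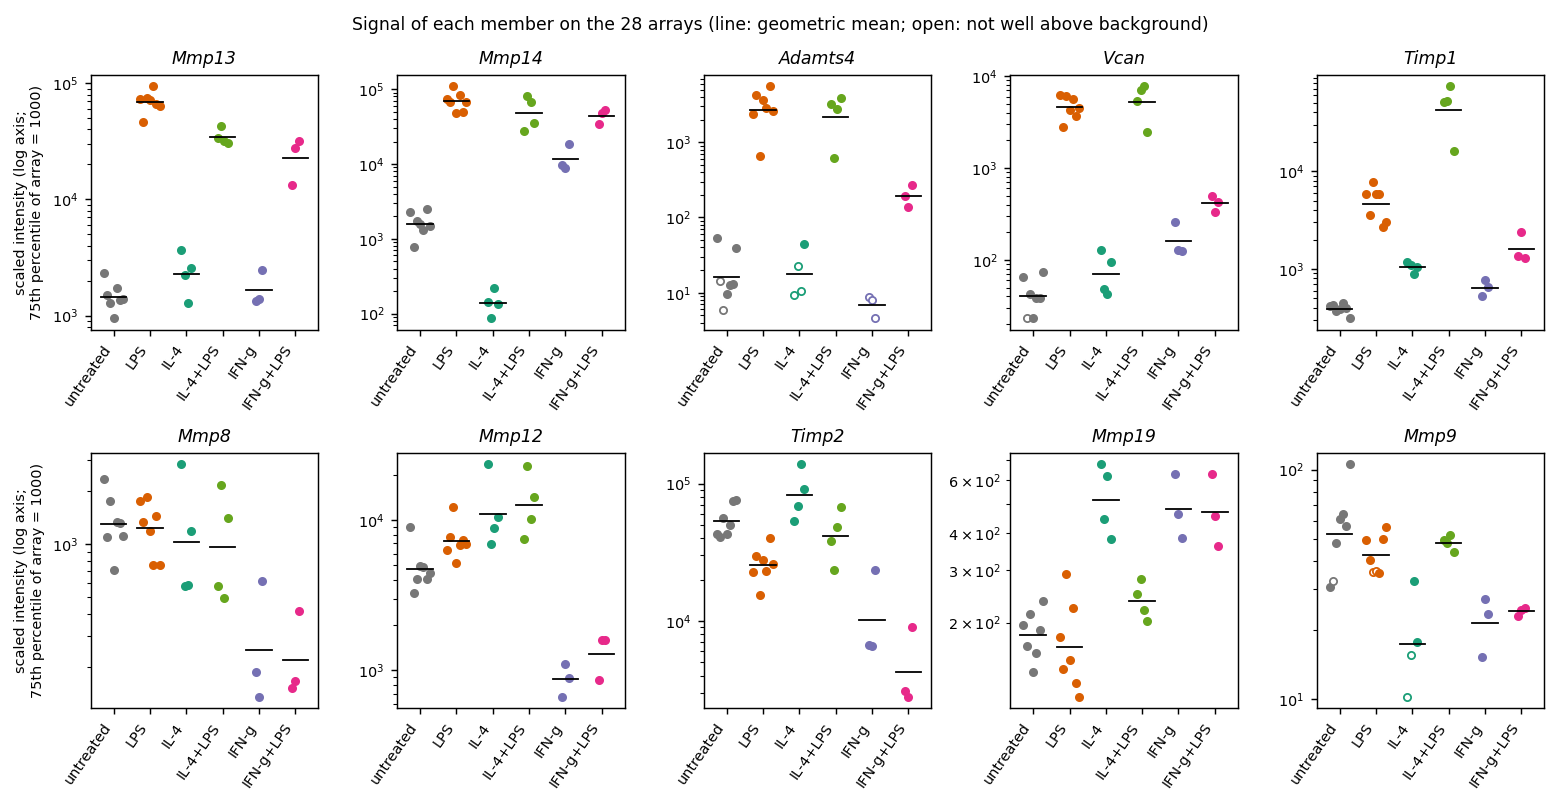
Scaled intensity (log axis, 75th percentile of each array at 1000) of the 10 members on the 28 arrays by treatment group. Points are arrays, lines are geometric means, and open points were not well above background. Mmp13, Mmp14, Adamts4, Vcan and Timp1 were higher with LPS than without it, and Mmp8, Mmp12 and Timp2 were lowest in the IFNγ groups.

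Mmp13, the main fibrillar collagenase of mice, rose with LPS in unprimed cells by about as much as Mmp14. Its scaled intensity was 948.6 to 2331 (median 1381) in untreated cells and 46400 to 94430 (median 72320) with LPS. The groups did not overlap, and the rise was 47.4-fold (log2 change 5.57 ± 0.24, adjusted p = 1.19e-15). On the 5 slides that held both groups the change ran from 5.01 to 6.06. IL-4 alone gave 3696, 2251, 1289 and 2591 in experiments A, B, C and G, and IFNγ alone gave 1325, 1378 and 2470 in experiments E, F and G. Both ranges overlapped the untreated one, and neither change was called (0.66 ± 0.28 with IL-4 and 0.19 ± 0.30 with IFNγ). With LPS, IL-4-primed cells gave 33670, 42440, 31700 and 30590, and IFNγ-primed cells 13230, 27450 and 32080. Every one of these 7 arrays was below the lowest array of unprimed cells with LPS. Relative to LPS alone Mmp13 was 2.01-fold lower after IL-4 (-1.005 ± 0.28, adjusted p = 0.0201) and 3.04-fold lower after IFNγ (-1.60 ± 0.30, adjusted p = 0.00035). The LPS change itself was smaller in primed cells, by -1.67 ± 0.39 for IL-4 (interaction, adjusted p = 0.0239) and -1.79 ± 0.43 for IFNγ (adjusted p = 0.00825). The IL-4 interaction was not called without IL-4 array A or G or without IL-4 with LPS array C or G, nor with median scaling, normexp background correction or only the shared experiment letters (-1.43). The fall relative to LPS alone was not called without IL-4 with LPS array A, C or G or over shared letters (-0.88). The IFNγ interaction was not called without IFNγ with LPS array E or over shared letters (-1.86).

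Mmp13, Mmp12 and Mmp8 lie in 1 cluster of metalloproteinase genes on chromosome 9, which allows their promoters to be set side by side with 3 different responses. RefSeq promoter windows (GRCm38.p6, 250 bases before to 50 after a transcription start) were on hand for 7 of the 10 members, with 2 starts for Mmp12, and not for Mmp9, Mmp19 and Adamts4. They were searched on both strands for the AP-1 motif TGANTCA, the kappaB motif, the STAT motif TTCNNNGAA and the same motif with 4 bases in place of 3 between TTC and GAA, the spacing STAT6 prefers. Over all 32851 windows of this length, 7.81% held the AP-1 motif, 4.51% the kappaB motif, 8.3% TTCNNNGAA and 6.95% its wider form. Among the members 2 windows held a match, both to AP-1: Mmp13 at bases -35 to -29 and the second start of Mmp12 at -44 to -38, counted from the start. The 8 windows held no match to the other motifs. The upstream 250 bases of the cluster members are given 5′ to 3′, with the AP-1 match in capitals.
Mmp13, chr9:7272264-7272513, plus strand: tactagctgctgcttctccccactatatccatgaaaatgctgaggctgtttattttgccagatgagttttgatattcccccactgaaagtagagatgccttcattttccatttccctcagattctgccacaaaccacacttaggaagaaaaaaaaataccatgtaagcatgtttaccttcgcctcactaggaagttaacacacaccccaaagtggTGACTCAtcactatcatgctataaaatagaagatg
Mmp12 (start 1), chr9:7344147-7344396, plus strand: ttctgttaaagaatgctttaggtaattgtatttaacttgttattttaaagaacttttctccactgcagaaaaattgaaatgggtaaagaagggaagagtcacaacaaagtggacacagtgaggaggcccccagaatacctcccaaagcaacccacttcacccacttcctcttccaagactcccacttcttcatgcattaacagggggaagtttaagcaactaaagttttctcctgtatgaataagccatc
Mmp12 (start 2), chr9:7347124-7347373, plus strand: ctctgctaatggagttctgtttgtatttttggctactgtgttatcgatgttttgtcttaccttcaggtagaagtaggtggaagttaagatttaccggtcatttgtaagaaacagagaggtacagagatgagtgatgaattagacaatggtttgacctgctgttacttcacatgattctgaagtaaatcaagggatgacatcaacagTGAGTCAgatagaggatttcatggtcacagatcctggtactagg
Mmp8, chr9:7558179-7558428, plus strand: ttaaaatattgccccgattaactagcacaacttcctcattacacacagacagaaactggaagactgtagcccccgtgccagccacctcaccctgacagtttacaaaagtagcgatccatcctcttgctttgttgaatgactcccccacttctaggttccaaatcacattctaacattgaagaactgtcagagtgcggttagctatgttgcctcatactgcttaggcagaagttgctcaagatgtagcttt

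Mmp12, the macrophage elastase, was moved by priming more than by LPS. Its scaled intensity was 3256 to 8981 (median 4486) in untreated cells and 5205 to 12230 (median 6903) with LPS, ranges that overlapped. The difference of 0.62 ± 0.28 was not called (adjusted p = 0.0762), but it was called with the slide as a block (0.58) and without untreated array A (0.77), the highest of its group. IL-4 gave 23500, 6894, 8813 and 10490 in experiments A, B, C and G, each above all untreated arrays other than array A. The rise was 2.34-fold (1.23 ± 0.32, adjusted p = 0.012). It was not called without IL-4 array A (0.86) with the experiment letter as a block (1.13) or over shared letters (1.20). With IL-4 and LPS it stood at 7509, 22930, 10140 and 14160, which did not differ detectably from IL-4 alone (0.18, 95% interval -0.57 to 0.93). IFNγ gave 670.8, 1110 and 896.7, and with LPS 865.2, 1587 and 1589. All 6 were below every array of the other groups. The IFNγ fall was 5.41-fold (-2.44 ± 0.36, adjusted p = 1.09e-05), and the fall relative to LPS alone was 5.60-fold (-2.49 ± 0.36, adjusted p = 1.38e-05). IL-4-primed cells stood 12.7-fold above IFNγ-primed cells without LPS and 9.67-fold above them with it (adjusted p = 7.8e-08 and 1.13e-06). With IL-4 alone 11.1% of all tested genes were called, 5.68% higher and 5.43% lower. Of 7 dendritic cell markers, limma called none higher with IL-4 alone and Clec9a lower (-1.54 ± 0.36). No array of IL-4 alone showed Clec9a well above background, so this is a measured value and not a full change. The marker with an unadjusted p below 0.05 and a higher level was Itgax (1 of 7), at 3.42 ± 1.24 (adjusted p = 0.0815). The sum of the 7 probes, which follows its brightest, was 24330 to 67950 in the IL-4 groups against 2368 to 18050 elsewhere, and its part in the Mmp12 values was not tested.

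Mmp8, known as neutrophil collagenase, was lower with IFNγ and did not change detectably with LPS. It was at 707.8 to 2349 (median 1316) in untreated cells and at 760.3 to 1860 (median 1337) with LPS, nearly the same range (-0.08, 95% interval -0.93 to 0.78). IL-4 gave 2844, 577.4, 581.5 and 1180, and IL-4 with LPS 574.9, 2160, 494.5 and 1409, spreads wider than the untreated one. IFNγ gave 186.5, 135.4 and 616.1, and IFNγ with LPS 151.7, 166.9 and 416.1. All 6 were below every untreated array, with experiment G the highest in both groups. The fall was 5.21-fold without LPS (-2.38 ± 0.53, adjusted p = 0.00142) and 5.63-fold relative to LPS alone (-2.49 ± 0.53, adjusted p = 0.00115). Mmp8 was higher after IL-4 than after IFNγ without LPS (2.05 ± 0.59, adjusted p = 0.0104) and with it (2.14 ± 0.59, adjusted p = 0.00845). Both calls ended with median scaling, with the experiment letter as a block and with these groups alone in the model. The first also ended without IL-4 array A or IFNγ array E or F, and the second without IFNγ with LPS array E or with normexp. Some neutrophil markers were lower with IFNγ too. Of 11 tested, 3 were called lower with IFNγ alone, namely Mpo (-1.13 ± 0.32), Elane and Retnlg. Of all tested genes 25.6% were called in this comparison, 13.1% lower. Elane (-1.76 ± 0.54) and Retnlg (-1.87 ± 0.51) were not well above background on any IFNγ array. Their values are measured ones and not full changes, and Elane was at least 1.89-fold lower. Relative to LPS alone Mpo (-1.15 ± 0.32), Elane (-1.78 ± 0.54) and Prtn3 (-1.11 ± 0.40) were lower after IFNγ with LPS. There 22.6% of all tested genes were called, 12% lower. Elane was again not well above background on any IFNγ with LPS array, and was at least 1.125-fold lower. Ltf (-0.37 ± 0.49), Camp (0.29 ± 0.41) and Ngp (0.05 ± 0.50) did not pass with IFNγ. The part of neutrophils in the Mmp8 fall was not tested. The sum of the 11 probes, which follows its brightest, S100a9, was 14360 to 28920 in untreated cells, 14710 to 48850 with IFNγ and 17160 to 46920 with IFNγ and LPS.

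Mmp14, a membrane-bound metalloproteinase that activates the proenzyme of MMP2 at the cell surface, was moved in opposite directions by IL-4 and IFNγ, and LPS closed the gap. Untreated cells gave 767.8 to 2505 (median 1599) and LPS 47460 to 110000 (median 66890), without overlap. The rise was 43.9-fold (5.45 ± 0.28, adjusted p = 4.25e-14), and it ran from 5.25 to 5.95 within the 5 slides. IL-4 gave 142.9, 86.6, 218 and 133.1 in experiments A, B, C and G, all below the untreated range. IFNγ gave 9642, 8823 and 18300 in experiments E, F and G, all above it. IL-4 thus lowered Mmp14 11.4-fold (-3.51 ± 0.33, adjusted p = 2.58e-08), and IFNγ raised it 7.39-fold (2.89 ± 0.36, adjusted p = 1.32e-06). With LPS the primed groups met the unprimed one. IL-4 with LPS gave 27660, 81210, 67060 and 35740, and IFNγ with LPS gave 34680, 47920 and 52730. Neither differed detectably from LPS alone, with intervals of the difference of -1.19 to 0.17 for IL-4 and -1.38 to 0.12 for IFNγ. With the slide as a block both differences were called, at -0.56 and -0.94. LPS raised Mmp14 350-fold in IL-4-primed cells (8.45 ± 0.37, adjusted p = 5.48e-15) and 3.83-fold in IFNγ-primed cells (1.94 ± 0.43, adjusted p = 0.0032). The interaction was 3.00 ± 0.47 for IL-4 (adjusted p = 0.000485) and -3.52 ± 0.51 for IFNγ (adjusted p = 5.96e-05). The IL-4 interaction was not called with normexp background correction (2.00) or over shared experiment letters (2.71). A second probe of Mmp14 gave 5.45 with LPS, -3.41 with IL-4 and 2.53 with IFNγ.

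**Figure D2:**
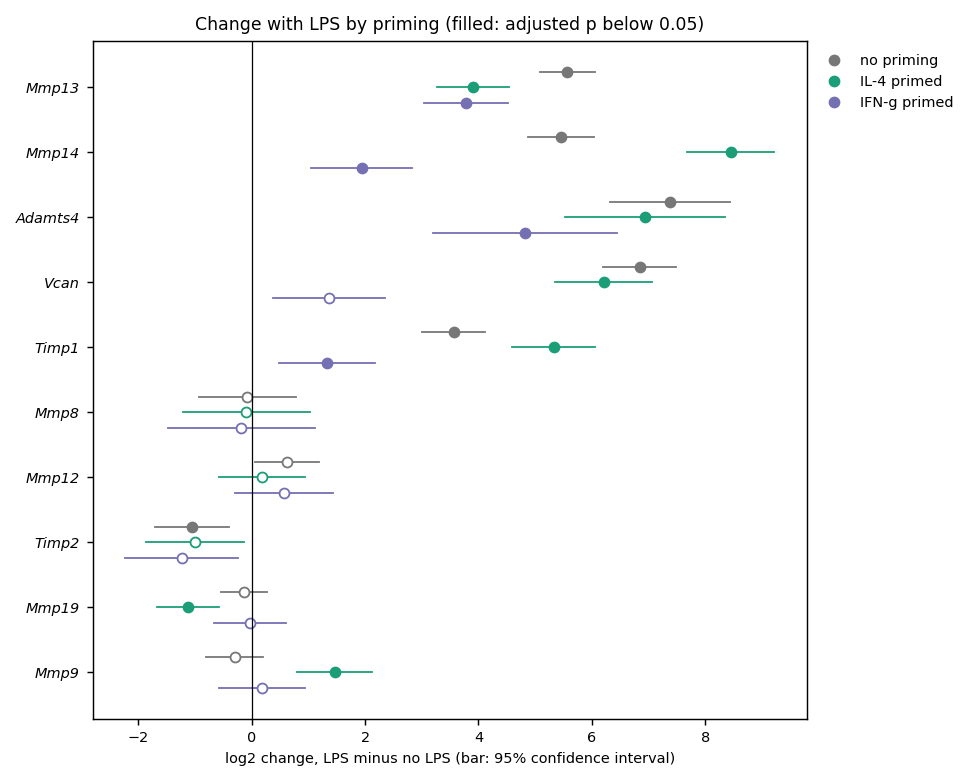
Log2 change with LPS of each member in unprimed, IL-4-primed and IFNγ-primed cells, with 95% confidence intervals as bars and called changes as filled points. The Mmp14 change was 8.45 after IL-4, 5.45 without priming and 1.94 after IFNγ, and the Vcan change was 6.85 without priming and 1.37 after IFNγ. For Adamts4 no IFNγ array and 1 of 4 IL-4 arrays without LPS was well above background, so its points there are measured values and not full changes.

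Promoter windows of the other members that rose with LPS are given as the sequences beside these changes, again for 250 bases upstream and 5′ to 3′. None of the 3 held a match to the motifs searched, so no letter is in capitals.
Mmp14, chr14:54431348-54431597, plus strand: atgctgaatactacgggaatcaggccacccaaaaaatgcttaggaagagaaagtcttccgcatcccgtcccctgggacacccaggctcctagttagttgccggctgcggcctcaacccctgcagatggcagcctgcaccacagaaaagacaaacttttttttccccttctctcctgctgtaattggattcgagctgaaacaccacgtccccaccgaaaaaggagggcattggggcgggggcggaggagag
Timp1, chrX:20869916-20870165, plus strand: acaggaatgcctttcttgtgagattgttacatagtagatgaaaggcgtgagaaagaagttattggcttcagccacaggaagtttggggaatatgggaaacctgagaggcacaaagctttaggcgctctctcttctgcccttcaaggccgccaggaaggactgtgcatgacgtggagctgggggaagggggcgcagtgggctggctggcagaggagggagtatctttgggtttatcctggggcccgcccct
Vcan, chr13:89742513-89742762, minus strand: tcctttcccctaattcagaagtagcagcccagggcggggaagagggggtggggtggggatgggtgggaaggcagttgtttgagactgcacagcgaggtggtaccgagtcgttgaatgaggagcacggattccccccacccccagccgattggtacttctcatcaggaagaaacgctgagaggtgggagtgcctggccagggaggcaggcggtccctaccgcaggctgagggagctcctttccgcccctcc

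Mmp19, an enzyme that cuts basement membrane proteins, was raised by both priming cytokines. Untreated cells gave 136.6 to 235.6 (median 188.8) and LPS 113.2 to 291.5 (median 149.9), which overlapped (-0.14, 95% interval -0.55 to 0.28). IL-4 gave 677.1, 444.1, 618.2 and 380.9, and IFNγ gave 627.9, 461.6 and 384.6, all above the untreated range. The rises were 2.83-fold with IL-4 (1.50 ± 0.23, adjusted p = 5.59e-05) and 2.64-fold with IFNγ (1.40 ± 0.26, adjusted p = 0.000196). With IL-4 and LPS the arrays gave 249.5, 280.4, 220.8 and 203.1, all below every array of IL-4 alone (-1.12 ± 0.26, adjusted p = 0.00153). IFNγ with LPS gave 629.7, 455.5 and 361.6, close to the array of the same letter without LPS (-0.03, 95% interval -0.66 to 0.60). With LPS, Mmp19 was therefore higher after IFNγ than in unprimed cells (1.50 ± 0.26, adjusted p = 0.000125). It was also higher after IFNγ than after IL-4, where the IL-4 minus IFNγ difference was -0.99 ± 0.29 (adjusted p = 0.0117). That last call ended without IFNγ with LPS array E, with normexp background correction and with these groups alone in the model. Normexp also ended the calls of the IFNγ rise (0.97) and of the fall with LPS after IL-4 (-0.87).

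Mmp9, a gelatinase, was near background. Its probe was well above background on 23 of 28 arrays. Untreated cells gave 30.64 to 105.4 (median 56.5) and LPS 35.32 to 56.39 (median 40.4), with no detectable change (-0.30, 95% interval -0.80 to 0.19). IL-4 gave 10.23, 15.54, 32.6 and 17.75, with 2 of the 4 arrays well above background, and the fall was called (-1.59 ± 0.28, adjusted p = 0.000271). IFNγ gave 15.21, 27.3 and 23.48, all below the untreated range (-1.30 ± 0.31, adjusted p = 0.00266). IL-4 with LPS gave 49.3, 47.78, 52.01 and 43.58, back within the untreated range and above IL-4 alone (1.46 ± 0.32, adjusted p = 0.000716). IFNγ with LPS gave 23.04, 24.45 and 25, within the range of IFNγ alone. The difference between the LPS changes was called for IL-4 (interaction 1.77 ± 0.40, adjusted p = 0.0186), not without IL-4 array A, with median scaling or quantile normalization, or over shared letters (1.55). Over shared letters the IL-4 fall was not called either (-1.44). The IL-4 with LPS level stood above the IFNγ with LPS level (0.99 ± 0.34, adjusted p = 0.0353). This call was lost when any 1 of 6 of the 7 arrays compared was left out, all but IL-4 with LPS array G, and with median scaling or quantile normalization. The IFNγ fall also ended with median scaling, quantile normalization and normexp. With normexp background correction the changes with IL-4 (0.08), with LPS after IL-4 (-0.01), and of the last 2 contrasts (-0.06 and -0.18) turned in sign and were not called. A second Mmp9 probe gave -0.33 ± 0.27 with IL-4, -1.87 ± 0.30 with IFNγ and 2.74 ± 0.33 for IL-4 with LPS against IFNγ with LPS. It gave -2.02 ± 0.30 for IFNγ with LPS against LPS and 1.54 ± 0.33 for IL-4 against IFNγ. The brightest probe gave -0.82 ± 0.31 and -0.29 ± 0.34 in these comparisons, and neither was called.

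Adamts4 was at or near background without LPS and clearly above it with LPS. Its scaled intensity was 5.86 to 53.56 (median 13.2) in untreated cells, with 5 of 7 arrays well above background, and 658.1 to 5570 (median 2852) with LPS. The rise was 166-fold (7.37 ± 0.51, adjusted p = 1.03e-11), and array C of the LPS group, at 658.1, stood below the other 6. On the 5 slides that held both groups the change ran from 3.62 to 8.77, and it was smallest on the slide of array C. IL-4 gave 9.385, 22.41, 10.44 and 44.13, with 1 array well above background, and IL-4 with LPS 3200, 626.4, 2807 and 3886. The measured LPS rise after IL-4 was 6.94 ± 0.68 (adjusted p = 1.03e-08), taken from a level that 1 of 4 arrays showed well above background. IFNγ gave 8.783, 7.964 and 4.58, none well above background, and IFNγ with LPS 193.8, 138.1 and 270.1. These 3 LPS arrays were above all arrays without LPS and below all other LPS arrays. Adamts4 was at least 20.4-fold higher with LPS after IFNγ (adjusted p = 0.000157), the bound being set against the lowest signal well above background on each array. That call ended with normexp (adjusted p = 0.0727, against 2.78e-06 to 0.0727 over the alternatives). It was 13.8-fold lower after IFNγ with LPS than with LPS alone (-3.79 ± 0.66, adjusted p = 0.000151), and 11.2-fold lower than after IL-4 with LPS (3.48 ± 0.73 for IL-4 minus IFNγ, adjusted p = 0.000874). The last call ended with the slide as a fixed block (2.61). The measured IFNγ interaction was -2.55 ± 0.94 and was not called (adjusted p = 0.106, against 0.0169 to 0.339 over the alternatives). It was called without LPS array C (-2.89, adjusted p = 0.0343). Since Adamts4 was not well above background with IFNγ alone, these are measured values and not full differences. By how much its LPS change differed after IFNγ could therefore not be measured.

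Vcan, a substrate of ADAMTS4 and a hyaluronan-binding proteoglycan, followed LPS as Adamts4 did but was higher with IFNγ alone. It was at 23.19 to 73.48 (median 38.5) in untreated cells and 2833 to 6286 (median 4523) with LPS, a 115-fold rise (6.85 ± 0.31, adjusted p = 5.3e-15). Within slides the rise ran from 6.56 to 7.61. IL-4 gave 127.7, 47.96, 42.47 and 94.33, a range that overlapped the untreated one (0.82 ± 0.37, adjusted p = 0.184). IL-4 with LPS gave 5350, 7127, 7804 and 2450, 73.8-fold above IL-4 alone (6.21 ± 0.41, adjusted p = 1.06e-11). IFNγ gave 259.6, 128.6 and 124.6, all above the untreated range (2.01 ± 0.40, adjusted p = 0.000493). IFNγ with LPS gave 497.7, 332.1 and 431.2, which were above IFNγ alone and below every other LPS array. The LPS change after IFNγ was 1.37 ± 0.48 and was not called (adjusted p = 0.0654). It was called with the experiment letter as a block in a model of these 2 groups (adjusted p = 0.0201), with the slide or scan day as a block, and without IFNγ array E. Its adjusted p ranged from 0.00288 to 0.285 over the alternatives. The LPS change was smaller after IFNγ than without priming (interaction -5.48 ± 0.57, adjusted p = 7.14e-07), which left Vcan 11.1-fold lower than with LPS alone (-3.47 ± 0.40, adjusted p = 9.16e-07). Vcan was also lower after IFNγ with LPS than after IL-4 with LPS (3.65 ± 0.45 for IL-4 minus IFNγ, adjusted p = 1.47e-06).

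The Vcan result with IFNγ alone depended on the probe. The array holds 5 Vcan probes, and the other 4, well above background on 6 to 15 arrays, gave changes with IFNγ of -0.69 ± 0.69, 0.99 ± 0.74, -0.27 ± 0.69 and 0.44 ± 0.49. Their LPS changes in unprimed cells were 3.16 to 5.74, and their differences between IFNγ with LPS and LPS alone were -3.99 to -2.94. Their IFNγ interactions were -3.30, -3.93, -2.75 and -3.86, smaller in size than the -5.48 of the brightest probe. The rise with IFNγ alone was not called with the mean of all probes (0.50) or with normexp (0.54). The direct difference of IL-4 from IFNγ for Vcan (-1.19 ± 0.45, adjusted p = 0.0488) turned in sign with both settings (0.11 and 0.07). That call was also lost without IL-4 array B or C or IFNγ array E or F, with no filter on dim probes, with the slide as a fixed block or the experiment letter as a block, and with these groups alone in the model.

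Timp1, the inducible TIMP, reached its highest level with IL-4 and LPS together. Untreated cells gave 313.2 to 451.8 (median 396.9) and LPS 2691 to 7776 (median 5892). The groups did not overlap, and the rise was 11.8-fold (3.56 ± 0.27, adjusted p = 4.07e-11). IL-4 alone gave 1172, 1103, 897.6 and 1050, a tight range above all untreated arrays (1.42 ± 0.31, adjusted p = 0.00285). IL-4 with LPS gave 50530, 52700, 74240 and 15940 in experiments A, B, C and G, each above the highest LPS array. Timp1 was 9.07-fold higher than with LPS alone (3.18 ± 0.31, adjusted p = 1.36e-07), with 2.16 to 3.65 on the 4 slides holding both groups. IFNγ gave 535, 774.3 and 647.9, all above the untreated range, but the change was not called (0.71 ± 0.35, adjusted p = 0.138). It was called with median scaling (1.16), with the scan day as a block (0.90), with the slide as a random block (0.82) and with these groups alone in the model. IFNγ with LPS gave 1373, 2376 and 1294, each below the lowest LPS array (-1.52 ± 0.35, adjusted p = 0.00202). The LPS rise was 40.1-fold after IL-4 (5.33 ± 0.35, adjusted p = 1.03e-11) and 2.50-fold after IFNγ (1.32 ± 0.41, adjusted p = 0.0344). With LPS, IL-4-primed cells stood 26.1-fold above IFNγ-primed cells (4.70 ± 0.38, adjusted p = 2.46e-09). The other 2 Timp1 probes gave 5.05 and 5.27 for this difference.

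The tests that the LPS change of Timp1 differed with priming were of unequal strength. The IFNγ interaction was -2.24 ± 0.49 (adjusted p = 0.00386), and it was not called over shared experiment letters alone (-1.92). The IL-4 interaction was 1.77 ± 0.44 (adjusted p = 0.04). It was not called without 16 of the 22 arrays left out in turn, which include all 4 IL-4 arrays, nor with median scaling, quantile normalization, normexp, the mean of all probes, no filter on dim probes, shared letters (1.69) or these groups alone in the model. The LPS rise after IFNγ was not called without IFNγ array E or G or IFNγ with LPS array E or F, nor with normexp (1.14) or these groups alone in the model. The fall after IFNγ with LPS relative to LPS alone was not called over shared experiment letters (-1.17).

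Timp2, a TIMP that also takes part in the activation of proMMP2 by MMP14, fell with LPS, where Timp1 rose. Untreated cells gave 40950 to 75520 (median 49850) and LPS 15370 to 39890 (median 25990), a 2.09-fold fall without overlap (-1.06 ± 0.32, adjusted p = 0.00783). Within the 5 slides it ran from -1.49 to -0.32, and with median scaling (-1.0) it was not called. IL-4 gave 53540, 68670, 137900 and 91560, and the difference from untreated cells was not called (0.63, 95% interval -0.13 to 1.40). IFNγ gave 6638, 6535 and 23690, all below the untreated range, with experiment G apart from the other two. The fall was 5.27-fold (-2.40 ± 0.41, adjusted p = 7.85e-05). IL-4 with LPS gave 38180, 23690, 48300 and 67690, and IFNγ with LPS gave 3097, 2819 and 8982. The LPS changes were -0.99 ± 0.42 after IL-4 (adjusted p = 0.0776) and -1.24 ± 0.48 after IFNγ (adjusted p = 0.107), and neither was called. Each was called with the experiment letter as a block in a model of the groups compared (adjusted p = 0.0423 and 0.015). Each was also called with slide or scan day as a block, and over the alternatives the adjusted p ranged from 0.00087 to 0.26 and from 0.0011 to 0.6. Without IL-4 array A, IL-4 with LPS array G or IFNγ with LPS array G these LPS changes were called too. Timp2 was 5.96-fold lower with IFNγ and LPS than with LPS alone (-2.57 ± 0.41, adjusted p = 4.82e-05). It stood 8.18-fold higher after IL-4 than after IFNγ without LPS and 9.69-fold higher with it (adjusted p = 1.15e-05 and 7.2e-06).

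**Figure D3:**
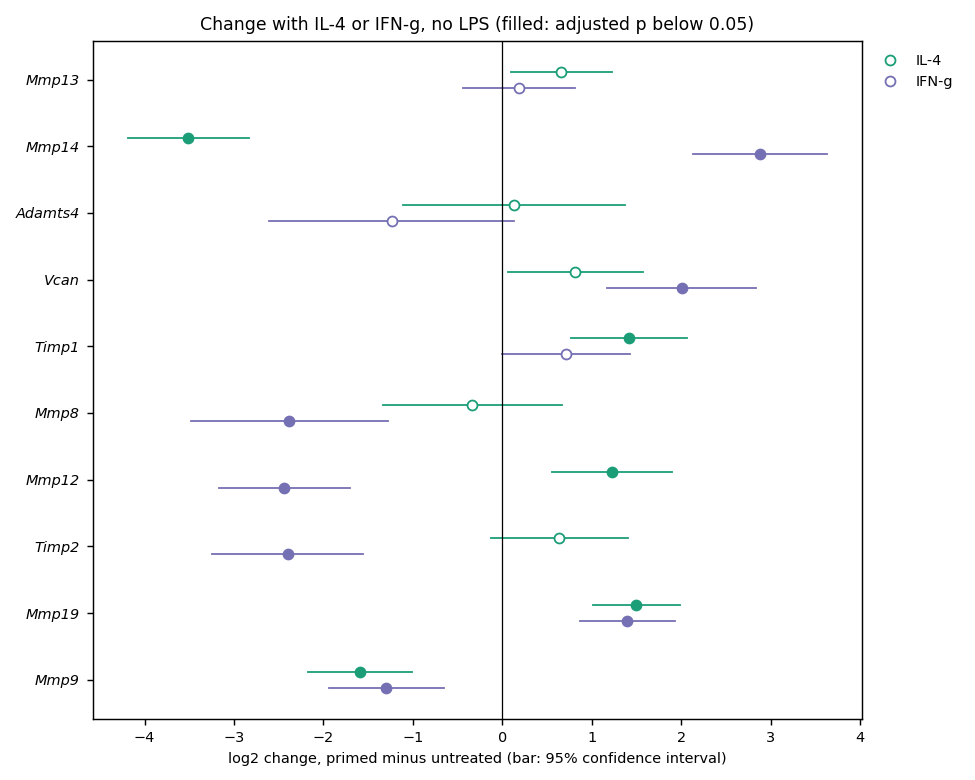
Log2 change of each member with IL-4 or IFNγ alone against untreated cells, with 95% confidence intervals as bars and called changes as filled points. Mmp14 lay at -3.51 with IL-4 and 2.89 with IFNγ, Mmp12 at 1.23 and -2.44, and Mmp19 at 1.50 and 1.40.

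LPS moved 6 of the 10 members in unprimed cells. Adamts4, Vcan, Mmp13, Mmp14 and Timp1 rose and Timp2 fell, while Mmp8, Mmp9, Mmp12 and Mmp19 did not pass. Of all tested genes 42.2% were called in this comparison, 20.8% higher and 21.4% lower. The median change of the members was 2.09 against 0.06 over all tested genes. Markers of stromal cells moved with LPS in part. Of 10 tested, 3 rose, namely Pdgfrb (6.07 ± 0.37), Dcn (2.33 ± 0.51) and Acta2 (1.10 ± 0.15). The collagen genes Col1a1 (0.09 ± 0.32), Col1a2 (0.30 ± 0.27) and Col3a1 (0.41 ± 0.39), Pdgfra (-0.19 ± 0.66), Lum, Thy1 and Postn did not pass. The sum of the 10 probes, which follows its brightest, Acta2, was 22880 to 44260 in untreated and 51940 to 90080 in LPS cells. The part of stromal cells in the LPS changes was not tested.

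IL-4 alone raised Mmp12, Mmp19 and Timp1 and lowered Mmp14 and Mmp9, so 5 of 10 members were called, where 11.1% of all tested genes were (5.68% higher, 5.43% lower). The members' median change was 0.65 and that of all tested genes 0.01. IFNγ alone raised Mmp14, Vcan and Mmp19 and lowered Mmp12, Timp2, Mmp8 and Mmp9, 7 of 10 members, where 25.6% of all tested genes were called (12.6% higher, 13.1% lower). The median change was -0.53 for the members and -0.29 for all tested genes, which median scaling moved to 0.16. Of the genes called with IFNγ 49.1% were higher, and 77.8% with median scaling. The 2 comparisons share the untreated arrays. The direct difference of IL-4 from IFNγ was called for 5 of 10 members (27.6% of all tested genes, 14.7% higher and 12.9% lower), namely Mmp12, Timp2 and Mmp8 higher and Mmp14 and Vcan lower after IL-4. Of all genes called in it 53.1% were higher after IL-4, and 27.6% with median scaling. Mmp14 differed by -6.40 ± 0.40, or 84.2-fold (adjusted p = 6.24e-12). No slide held arrays of both IL-4 and IFNγ groups, so no within-slide value exists for this difference.

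After IL-4, LPS raised Mmp14, Adamts4, Vcan, Timp1, Mmp13 and Mmp9 and lowered Mmp19, 7 of 10 members, where 31% of all tested genes were called (14.9% higher, 16.1% lower). After IFNγ, LPS raised Adamts4, Mmp13, Mmp14 and Timp1, 4 of 10 members, where 11.7% of all tested genes were called (5.57% higher, 6.14% lower). The Mmp13 rise was 14.9-fold after IL-4 (3.90 ± 0.31, adjusted p = 2.79e-10) and 13.7-fold after IFNγ (3.78 ± 0.36, adjusted p = 9.86e-08). With the slide as a block 7 members were called after IFNγ, with normexp 2. The test of the difference in LPS change between primed and unprimed cells was called for 4 of 10 members with IL-4 (1.58% of all tested genes, 0.9% positive and 0.677% negative), of which Mmp14, Mmp9 and Timp1 were positive and Mmp13 negative. With normexp the limma model called none of the 10, with 3 at an unadjusted p below 0.05. With IFNγ it was called for 4 of 10 members, all negative (Vcan, Mmp14, Timp1 and Mmp13), where 8.23% of all tested genes were called (3.01% positive, 5.22% negative). Of all genes called for it 36.5% were positive, and 25.5% with median scaling.

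Against LPS alone, IL-4 with LPS differed for 2 of 10 members, Timp1 higher and Mmp13 lower, where 8.84% of all tested genes were called (4.32% higher, 4.52% lower). With the slide as a fixed block 5 members were called. Of all called genes 48.9% were higher, and 37.6% with median scaling. IFNγ with LPS differed for 8 of 10, where 22.6% of all tested genes were called (10.6% higher, 12% lower), with Mmp19 higher and Adamts4, Vcan, Timp2, Mmp8, Mmp12, Mmp13 and Timp1 lower. The median change of the members was -2.04 against -0.23 over all tested genes, and 46.9% of all called genes were higher, or 72.7% with median scaling. Between the primed groups with LPS, 8 of 10 members were called, where 25.4% of all tested genes were (13.8% higher, 11.6% lower), 7 of them higher after IL-4 and Mmp19 lower. Of all called genes 54.3% were higher after IL-4, and 25.2% with median scaling. Mmp13 (0.60, 95% interval -0.09 to 1.29) and Mmp14 (0.12, 95% interval -0.71 to 0.95) were not. All 39 called changes that could be read on a slide holding both groups had the same direction on every such slide. These slides hold arrays that gave the calls, so this is a description and not a separate check.

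Other genes of matrix turnover were counted from lists, beside shares of all tested genes called of 42.2% with LPS, 11.1% with IL-4, 25.6% with IFNγ, 31% with LPS after IL-4 and 11.7% with LPS after IFNγ. No list is read as standing apart from these shares. Of 13 other metalloproteinases tested, 4 rose and 1 fell with LPS, with a median change of 0.26 against 0.06 over all tested genes. Mmp25, a membrane-anchored enzyme, rose by 4.61 ± 0.23 and the gelatinase Mmp2, whose proenzyme MMP14 activates, by 1.99 ± 0.37. Mmp2 was well above background on only 9 of the 28 arrays. Mmp1a was at 1.38 ± 0.78 and did not pass. Mmp25 fell by 1.30 ± 0.26 with IL-4 (-1.30, adjusted p = 0.00122) and rose by 5.09 ± 0.29 with IFNγ (adjusted p = 3.69e-12), as Mmp14 did in direction. No other gene of the list was called with IL-4. With IFNγ, Mmp11 (-1.54 ± 0.29) and Mmp28 (-1.05 ± 0.38) fell, and Mmp10 (-2.95 ± 1.40) did not pass. After IL-4, LPS raised 3 and lowered 1 of the 13, among them Mmp25 (5.51 ± 0.30). After IFNγ limma called none of the 13, with 3 at an unadjusted p below 0.05.

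Other ADAMTS and ADAM proteases were counted in the same way. Of 13 other ADAMTS genes 1 rose and 1 fell with LPS, Adamts9 by 1.17 ± 0.45 and Adamts10 by -2.37 ± 0.37, and Adamts20 (1.20 ± 0.61) did not pass. Limma called none with IL-4 alone (2 at an unadjusted p below 0.05), and with IFNγ Adamts7 fell (-1.29 ± 0.41). Of 8 ADAM genes 2 rose with LPS, the TNF sheddase Adam17 (1.08 ± 0.14) and Adam9 (0.84 ± 0.11). With IL-4, Adam33 (-1.30 ± 0.33, adjusted p = 0.00938) and Adam17 (-0.71 ± 0.17, adjusted p = 0.00477) fell. With IFNγ, Adam33 fell (-1.60 ± 0.37) and Adam9 rose (0.51 ± 0.14). Adam17 rose with LPS after IL-4 (1.78 ± 0.19). Of the 5 other inhibitors tested limma called none in any of the 11 comparisons, and 5 of these 55 tests had an unadjusted p below 0.05. Timp3 was at 1.00 ± 0.61 with LPS.

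The list of hyaluronan genes and proteoglycans, which holds syndecans and small leucine-rich proteoglycans too, had 20 genes tested. Of these 7 rose and 3 fell with LPS, where 42.2% of all tested genes were called, with a median change of 0.32. The hyaluronan synthase Has1 rose by 4.38 ± 0.28 and Tnfaip6, whose protein TSG-6 crosslinks hyaluronan, by 6.35 ± 0.34, while the hyaluronidase Hyal1 fell (-3.67 ± 0.37). After IL-4, LPS raised Has1 by 6.48 ± 0.38, and after IFNγ by 2.28 ± 0.43. Tnfaip6 was lower than with LPS alone both after IL-4 with LPS (-2.63 ± 0.40) and after IFNγ with LPS (-2.74 ± 0.44). With IFNγ alone 6 of the 20 rose, among them the syndecans Sdc2 (3.41 ± 0.37) and Sdc1 (1.69 ± 0.33) and Hyal1 (1.57 ± 0.47). With IL-4 alone 2 rose and 1 fell, with the syndecan Sdc4 at 1.33 ± 0.24.

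Activators of proenzymes and matrix substrates were counted last. Of 6 activators 3 rose and 1 fell with LPS, the plasminogen activator Plat by 4.42 ± 0.29, its relative Plau by -2.55 ± 0.33, and the urokinase receptor Plaur by 1.85 ± 0.26. Furin, which cuts the propeptide of MMP14, also rose with LPS (1.81). It rose with IL-4 (1.51 ± 0.15), with IFNγ (1.87 ± 0.16) and with LPS after IFNγ (1.27 ± 0.19) too. Of 11 matrix substrates 5 rose with LPS (median change 0.60), led by tenascin C (Tnc, 4.08 ± 0.60). With IL-4 alone 1 rose and 3 fell. Fibronectin (Fn1) rose by 6.11 ± 0.50, and osteopontin (Spp1, -1.38 ± 0.17) and the collagen gene Col4a2 (-1.61 ± 0.19) fell. With IFNγ alone 1 rose, thrombospondin 1 (Thbs1, 5.41 ± 0.79), and 5 fell, among them the laminin gene Lamb2 (-2.35 ± 0.30).

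**Figure D4:**
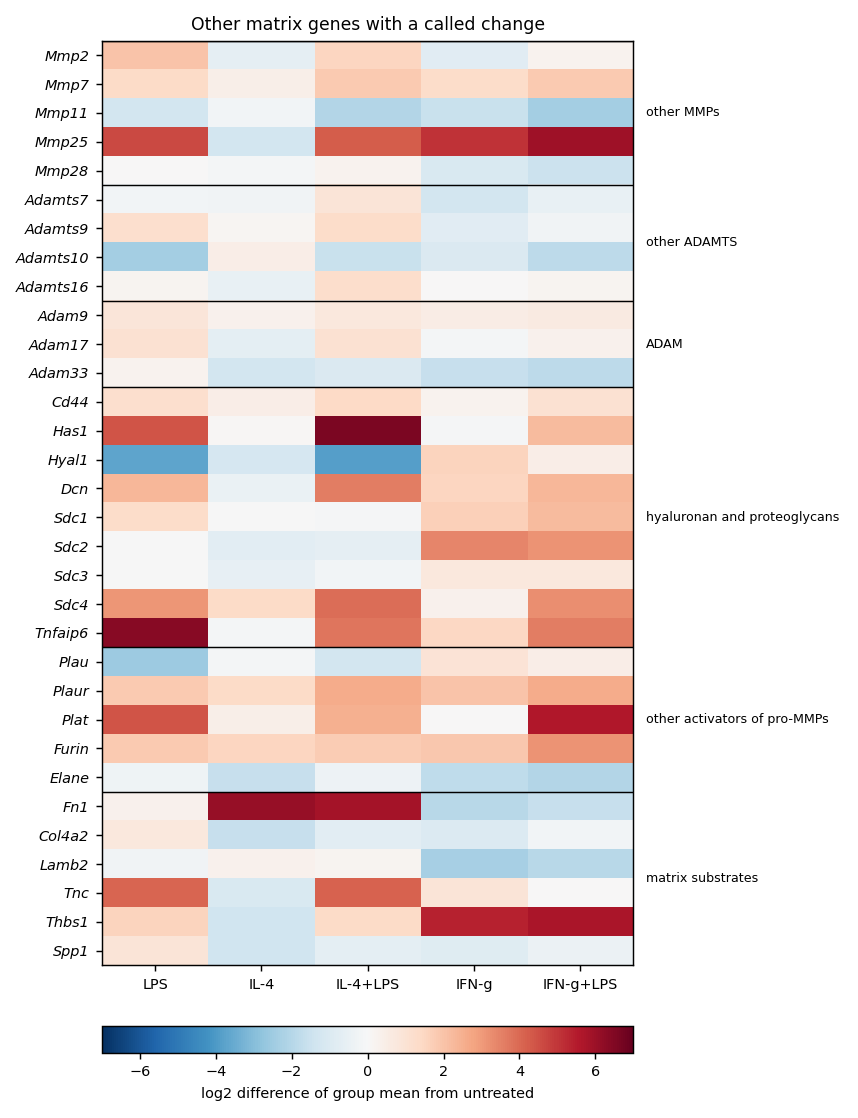
Difference of each group mean from the untreated mean (log2 colour scale) for the 32 genes outside the members that were among the 3 largest called changes of their list in at least 1 of 5 comparisons (LPS, IL-4 or IFNγ against untreated, and LPS after each priming). Mmp25 differed by 4.61 with LPS and 5.09 with IFNγ, and Fn1 by 6.11 with IL-4.

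The genes whose levels ran most like a member over the 28 arrays were found by Pearson correlation on the normalised log2 scale, given as a description. All arrays of a group share their treatment, so such a correlation largely follows the 6 group means. Among the genes closest to Mmp14 was Fpr2 (r = 0.984), a formyl peptide receptor. Closest to Mmp13 were Abracl (0.983) and Tnip3 (0.980), to Vcan Ext1 (0.959) and Rhou (0.959), and to Adamts4 Tbc1d1 (0.963) and Dtwd1 (0.956). Appl1 (0.949) and Il20rb (0.946) ran most like Timp1, and Akr7a5 (0.966) and Man2a2 (0.952) most like Timp2. For Mmp8 these were Nqo1 (0.894) and Alox5 (0.891), for Mmp19 Vhl (0.939) and Ccno (0.888), and for Mmp9 Sptb (0.800) and Mylk (0.778). For Mmp12 the first was Cavin1 (0.930), and the second was a probe without a gene name here.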

How the data were processed

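RNA of 28 cultures was hybridised in 1 colour (Cy3) to Agilent 44K arrays. The authors deposited the scanner output of each array, fluorescence intensities read with Agilent Feature Extraction 9.5.1, per the submitters' processing notes. Per the file headers the signal was detrended, low spots were replaced by surrogates, and no local background was subtracted. The authors also deposited a table of log2 values, whose columns could not be tied to samples and which was not used for results.

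From the processed signal, log2 minus the array's log2 75th percentile was computed, outlier spots were left out and replicate spots averaged. Of 41174 probes, 22951 were named through their accession, 6659 by current symbol and 3109 by synonym, and 8455 kept the array's name. A gene's brightest probe stood for it. Genes well above background on at least 3 arrays were tested with limma 3.58.1 (R 4.3.3), 1 model of 6 group means and 11 comparisons, two-sided, Benjamini-Hochberg adjusted. The interaction tests ask whether LPS acted differently after a cytokine, primed minus unprimed. The fit was tested on simulated data with independent noise on each array, which leaves out the shared deviation of arrays on 1 slide. Figures used Python 3.11.15 and matplotlib 3.10.9. Where no array of the dimmer group was well above background, a fold is a lower bound. The number of arrays, 3 to 7 a group, limits the precision.

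With group means removed, same-letter arrays of IL-4 with and without LPS had an r of 0.149 to 0.719 and those of IFNγ 0.274 to 0.624, above 0.1 in every pair, so these pairs were also fitted with the letter as a block. Of the 7 pairs 5 share a slide, and for these letter and slide cannot be told apart; the 2 on other slides had 0.149 and 0.177. In the other comparisons at least 1 pair was below 0.1, and the main model has no letter. The members and gene lists were chosen with earlier results of these data known. All members were tested in every comparison and those called are named, but members not called are given in some comparisons only. Genes named from the lists come mostly from up to 3 called genes with the largest change and 1 that did not pass. They are not given for every comparison. The 2 genes most correlated with each member are named, and 1 such result is not reported here. Lists other than those named held markers of macrophages, neutrophils, fibroblasts and stroma, dendritic cells, mast cells and basophils, and lymphocytes. Alternatives were normexp background correction (offset 50), quantile and median scaling, the mean of all probes, filters on dim probes, a block for the experiment letter, the slide or the scan day, shared letters, only the groups compared, and each array left out.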

Additional observations from a re-analysis of the deposited data

Results flagged for a closer look

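In groups of 4 to 10 arrays the highest or lowest array was set against the others with Dixon's criterion at 95%, which chance alone meets in about 1 of 20 groups. Of 40 gene and group combinations 2 met it. For Mmp12 the untreated array A stood at 8981 against 3256 to 4973 on the other untreated arrays. For Adamts4 the LPS array C stood at 658.1, below the other 6.

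The LPS change differed between primed and unprimed cells, by the interaction test, for 8 combinations of a member and a cytokine. With IL-4 the LPS change was larger for Mmp14 (3.00), Mmp9 (1.77) and Timp1 (1.77) and smaller for Mmp13 (-1.67). With IFNγ it was smaller for Vcan (-5.48, and -3.93 to -2.75 by the other 4 probes), Mmp14 (-3.52), Timp1 (-2.24) and Mmp13 (-1.79). Mmp14 and Timp1 are the members with a larger LPS change after IL-4 and a smaller one after IFNγ. The geometric mean of Mmp14 without LPS was 137.7 after IL-4, 1567 in untreated cells and 11590 after IFNγ, and with LPS it was 48170, 68740 and 44420 in the same order.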

How the results depend on the processing

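Over the alternatives 2580 member values were recomputed. Of these 2337 kept their direction and side of the threshold, 95 lost and 53 gained their call, and 95 changed sign, 6 of them called values (5 with normexp, 1 with the mean of all probes). All 110 values with the filter at 14 arrays above background kept both. Members near background, Mmp9 above all, are limited by signal over background, and the 3 arrays of each IFNγ group limit their comparisons. Comparison with the deposited value table was not run, since its columns could not be tied to samples. The cause of the changes below was not tested.

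With normexp, Mmp9 changed sign in LPS against untreated (0.050), IL-4 against untreated (0.083), IL-4 with LPS against IL-4 (-0.011), IFNγ with LPS against LPS (0.20), the IL-4 interaction (-0.061), IL-4 against IFNγ (1.05) and IL-4 with LPS against IFNγ with LPS (-0.18). So did Mmp8 (0.23) and Mmp19 (0.20) in IFNγ with LPS against IFNγ, Mmp8 in the IFNγ interaction (0.34) and Vcan in IL-4 against IFNγ (0.071). With quantile normalization the sign changed for Mmp12 in IL-4 with LPS against IL-4 (-0.19) and the IFNγ interaction (0.23), Timp2 in the latter (0.50), Mmp9 in IFNγ with LPS against IFNγ (-0.0019) and Mmp8 in the IL-4 interaction (0.0073). With median scaling it changed for Timp2 in the IL-4 interaction (-0.12), Mmp19 in the IFNγ interaction (-0.076) and IL-4 against IFNγ (-0.26), and Mmp14 in IL-4 with LPS against IFNγ with LPS (-0.26). With the mean of all probes it changed for Mmp9 in IFNγ with LPS against IFNγ (-0.14) and IL-4 against IFNγ (0.62), and for Vcan in IL-4 with LPS against LPS (-0.30) and IL-4 against IFNγ (0.11). With the slide as a fixed or random block it changed for Adamts4 in IL-4 against untreated (-0.13, -0.068), for Mmp9 (0.29, 0.10) and Mmp19 (-0.33, -0.17) in IL-4 against IFNγ and, with the fixed block, for Timp2 in the IL-4 interaction (-0.022). With the scan day as a block it changed for Mmp19 in IL-4 against IFNγ (-0.13). With shared letters it changed for Adamts4 in IL-4 against untreated (-0.22), IL-4 with LPS against LPS (0.091) and the IL-4 interaction (0.31), and for Mmp8 in the IL-4 (0.057) and IFNγ (0.22) interactions.

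With the experiment letter as replicate block, 102 of 110 values kept direction and call. Mmp19 in IL-4 against IFNγ (-0.0083) and Mmp14 in IL-4 with LPS against IFNγ with LPS (-0.048) changed sign. The call ended for Mmp12 in IL-4 against untreated (1.13), Mmp8 in IL-4 against IFNγ (1.60) and in the same difference with LPS (1.69), and Vcan in IL-4 against IFNγ (-1.26). A call was gained for Timp2 in IL-4 with LPS against IL-4 (-0.99) and Mmp9 in IFNγ with LPS against LPS (-0.98). With the block in the paired groups alone, 17 of 20 values kept both, and Timp2 (-0.99 with IL-4, -1.24 with IFNγ) and Vcan (1.37 with IFNγ) gained a call. The block changed no other call.

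The number of the 10 members called moved past 1.5 times its value in these cases. With normexp it was 4 in IFNγ against untreated, 2 in IFNγ with LPS against IFNγ, 5 in IL-4 with LPS against IFNγ with LPS and, by limma, 0 for the IL-4 interaction (3 at an unadjusted p below 0.05). With median scaling it was 1 for the IL-4 interaction. With the slide as a fixed or random block it was 7 and 7 in IFNγ with LPS against IFNγ and 5 and 6 in IL-4 with LPS against LPS. With shared letters it was 3 in IL-4 against untreated, 1 in IL-4 with LPS against LPS, 2 for the IFNγ interaction and, by limma, 0 for the IL-4 interaction (5 unadjusted). For IL-4 against IFNγ it was 3 with the replicate block and 3 with only the groups compared.

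With each array left out in turn, the number called ran from 6 to 7 for LPS against untreated, 4 to 6 for IL-4 and 7 to 7 for IFNγ against untreated, 7 to 8 for LPS after IL-4, 3 to 5 after IFNγ, 1 to 4 for the IL-4 interaction and 3 to 5 for that of IFNγ. It ran from 1 to 2 for IL-4 with LPS against LPS, 8 to 8 for IFNγ with LPS against LPS, 3 to 5 for IL-4 against IFNγ and 5 to 8 for the same with LPS. Of 1260 values 56 changed sign, 0 of them called by limma. They belong to these ranges: Mmp8 from -0.22 to 0.066 for LPS against untreated, Adamts4 from -0.31 to 0.43 for IL-4 and Mmp13 from -0.10 to 0.35 for IFNγ against untreated. For LPS after IL-4, Mmp8 ran from -0.48 to 0.39 and Mmp12 from -0.11 to 0.54. For LPS after IFNγ, Mmp8 ran from -0.65 to 0.46, Mmp9 from -0.068 to 0.35 and Mmp19 from -0.25 to 0.16. For the IL-4 interaction Mmp8 ran from -0.41 to 0.47, Adamts4 from -0.77 to 0.16 and Timp2 from -0.17 to 0.34. For the IFNγ interaction Mmp8 ran from -0.57 to 0.54, Mmp12 from -0.24 to 0.24, Mmp19 from -0.11 to 0.29 and Timp2 from -0.71 to 0.44. Adamts4 ran from -0.65 to 0.29 and Vcan from -0.022 to 0.54 for IL-4 with LPS against LPS, Mmp19 from -0.062 to 0.29 for IL-4 against IFNγ, and Mmp14 from -0.13 to 0.38 for the same with LPS.

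Of all tested genes, the number called and its lowest and highest over the alternatives were 9465 (5535 to 12869) for LPS against untreated, 2494 (733 to 3946) for IL-4 and 5757 (2661 to 8076) for IFNγ against untreated. For LPS after IL-4 it was 6966 (3543 to 11486), after IFNγ 2628 (747 to 6872), for the IL-4 interaction 354 (38 to 1381) and for that of IFNγ 1847 (620 to 4707). It was 1985 (451 to 4464) for IL-4 with LPS and 5078 (1599 to 7895) for IFNγ with LPS against LPS, 6202 (3041 to 7674) for IL-4 against IFNγ and 5701 (2457 to 7387) for the same with LPS. The lowest counts came with normexp, with shared letters or, for LPS after IFNγ, with only the groups compared, and the highest with the slide as a block.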

Other observations

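Arrays that shared a slide deviated together. After removal of the group means, arrays of different groups were correlated over the tested genes. With the same slide and letter r was 0.274 to 0.719 (median 0.567, 7 pairs), and with the same slide and another letter 0.0279 to 0.81 (median 0.43, 25 pairs). With another slide and the same letter r was -0.514 to 0.517 (median -0.0269, 39 pairs), and with both different -0.574 to 0.564 (median -0.0575, 247 pairs).

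Mmp12 and Mmp8 were high on 1 slide. The first slide held untreated array A, LPS array C, IL-4 array A and the array of IL-4 with LPS B. Mmp12 stood there at 8981, 12230, 23500 and 22930, the highest of each of the 4 groups. Mmp8 stood at 2349, 1860, 2844 and 2160, again the highest of each. Adamts4 stood there at 53.56, 658.1, 9.385 and 626.4, the highest untreated array and the lowest of each other group. Whether the slide or the cultures set these levels cannot be told apart.

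Of the 28 columns of the deposited value table, 2 followed the array of their own sample best, 13 another array of the same group and 13 an array of another group. The best match had an r of at least 0.9995 over 28115 probes. Whether the table or the scanner files carry the wrong sample labels, group or experiment letter, was not tested beyond the marker genes given here. The groups and letters given with single arrays are those of the scanner files. Retnla followed the IL-4 labels of the scanner files on all 28 arrays. By the same labels Il6 was at 1.695 to 6.689 on untreated arrays and at 8473 to 61850 on LPS arrays. After IL-4 it was at 5.988 to 37.09 without LPS and at 41490 to 146900 with LPS. After IFNγ it was at 74.51 to 501.2 without LPS and at 10570 to 24770 with LPS. Cxcl9 was at 69.59 to 149.5 on untreated arrays and at 123100 to 154500 on IFNγ arrays. It was at 171100 to 288000 with IFNγ and LPS and at 10730 to 66990 with LPS alone. With IL-4 it was at 7.668 to 24.15, and with IL-4 and LPS at 2974 to 23750.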
